A study of Homo sapiens with 15 samples.

Results

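Well known targets of YAP and TEAD, 10 genes in all, were followed in NTERA2 cells after 4 knockdowns: CCN1, CCN2, ANKRD1, AMOTL2, AXL, LATS2, AJUBA, CRIM1, F3 and NT5E. They were taken by symbol from the deposited table of raw counts, in which all 10 were found among 28207 genes, and all 10 were among the 18760 genes that passed the filter on low counts and were tested. NTERA2 is a long established cell line from a human embryonal carcinoma. Each of the 5 groups held 3 libraries of RNA from cells given siRNA 2 times over 7 days: siIGF2BP1, siSRF, siFOXM1, siIQGAP3 and siControl. IGF2BP1 is an RNA-binding protein, SRF and FOXM1 are transcription factors, IQGAP3 is a scaffold protein, and siControl is the control siRNA. All groups share the line, the serum medium and the siRNA schedule. The labels give no siRNA sequence, so the number of siRNAs per target is not known. Nothing in them ties the 3 libraries of a group to separate cultures, so the p-values below speak of variation between libraries, and that variation may be technical.

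YAP (gene YAP1) and its paralog TAZ (gene WWTR1) are coactivators that bind DNA through the TEAD transcription factors. The Hippo kinases MST and LATS phosphorylate them, which holds them in the cytoplasm or leads to their degradation, so that target genes are read mainly when the kinases are quiet, as in cells that are spread or under tension. Several targets encode inhibitors of YAP themselves, which makes the pathway a feedback loop. The 10 genes encode the secreted matrix proteins CCN1 and CCN2, the nuclear and sarcomeric protein ANKRD1, the pathway regulators AMOTL2, LATS2 and AJUBA, and the surface proteins AXL, CRIM1, F3 and NT5E.

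TEAD factors recognise the letters GGAATG, and the promoters of several of the 10 genes hold them. RefSeq promoter windows of build GRCh38.p14, which run from 250 bases before a transcription start to 50 bases after it, were matched for 8 of the 10 genes, with 11 windows. No window was matched for CCN1 or CRIM1, so nothing is said of their promoters. GGAATG, searched on both strands, stood in 6 of these 11 windows, which belonged to 6 genes. It stood in 14% of all 35116 windows of the same length. CCN2 held 3 matches and ANKRD1 held 2, while AMOTL2, AXL, LATS2 and AJUBA held 1 each. TGANTCA, the site of AP-1 factors, stood once in the ANKRD1 window and 2 times in the F3 window, against 7.71% of all windows. The CArG box, which SRF binds, was in 1.29% of all windows and in 0 of the 11. A match describes letters only, and no binding was measured here. The CCN2, ANKRD1, AMOTL2 and F3 windows are shown for their contrast in motifs, since the first 2 hold several GGAATG letters, the AMOTL2 window holds them on the opposite strand and the F3 window holds AP-1 letters alone. They are the 250 bases before the start, written 5′ to 3′ on the gene's strand, with GGAATG (or its complement CATTCC) and TGANTCA in capitals. CCN2 lies at chr6:131951373-131951622, ANKRD1 at chr10:90921088-90921337, the second AMOTL2 start at chr3:134374448-134374697 and F3 at chr1:94541760-94542009, all on the minus strand.
CCN2: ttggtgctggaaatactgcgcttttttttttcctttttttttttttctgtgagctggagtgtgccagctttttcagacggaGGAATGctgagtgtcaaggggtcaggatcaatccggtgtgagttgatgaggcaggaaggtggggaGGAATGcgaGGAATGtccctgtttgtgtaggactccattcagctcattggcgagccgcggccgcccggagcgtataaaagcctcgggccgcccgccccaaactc
ANKRD1: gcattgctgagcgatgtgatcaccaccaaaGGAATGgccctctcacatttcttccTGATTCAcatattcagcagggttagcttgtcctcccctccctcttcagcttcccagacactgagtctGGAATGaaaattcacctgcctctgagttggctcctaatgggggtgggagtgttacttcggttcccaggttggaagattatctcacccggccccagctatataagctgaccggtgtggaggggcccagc
AMOTL2, second start: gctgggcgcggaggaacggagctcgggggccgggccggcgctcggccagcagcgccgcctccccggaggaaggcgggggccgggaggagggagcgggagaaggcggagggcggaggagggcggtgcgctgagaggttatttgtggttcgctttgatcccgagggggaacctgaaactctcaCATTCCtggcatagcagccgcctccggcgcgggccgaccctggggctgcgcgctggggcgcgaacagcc
F3: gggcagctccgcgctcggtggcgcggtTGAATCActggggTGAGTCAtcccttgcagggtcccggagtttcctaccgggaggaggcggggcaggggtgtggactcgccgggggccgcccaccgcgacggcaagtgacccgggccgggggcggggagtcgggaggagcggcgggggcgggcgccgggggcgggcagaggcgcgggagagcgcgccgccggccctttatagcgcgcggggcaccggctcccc

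**Figure D1:**
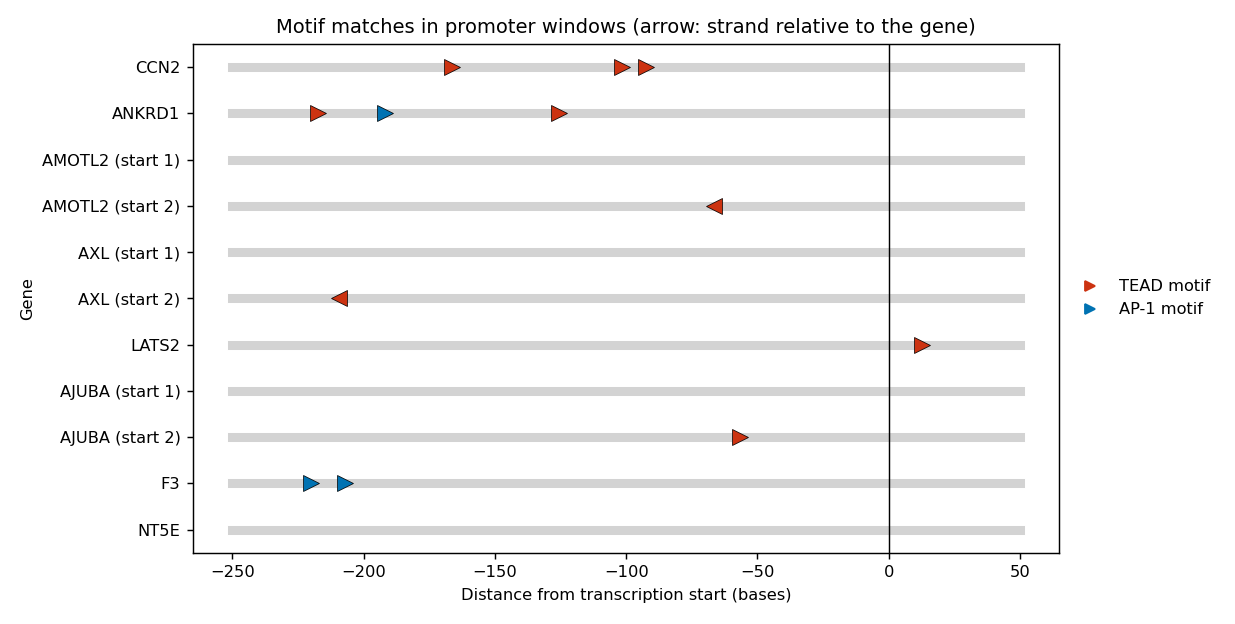
Motif matches in the 11 promoter windows of 8 genes, by distance from the transcription start in bases, with red triangles for GGAATG (TEAD) and blue triangles for TGANTCA (AP-1), each pointing along the strand of the match. GGAATG is found in 6 windows, and the CCN2 window holds 3 matches, all before the start.

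Library totals ran between 35275570 and 44996064 counts. Libraries are numbered within a group in the order of the table's columns, and the numbers pair nothing across groups. The third library stood apart from the other 2 in 4 of the 5 groups. A chi-square statistic per gene between libraries 1 and 2 was 2.28 to 4.48 in siIGF2BP1, siSRF, siFOXM1 and siIQGAP3 and 16.9 in siControl, where pure counting noise gives about 1. To the third library it was 124 to 267 in siIGF2BP1, siSRF and siFOXM1 and 451 and 558 in siControl, but 3.60 and 1.82 in siIQGAP3. The first principal component took 62.8% of the variance, and on it the third siControl library stood at 131, beside 157 for each siIQGAP3 library and −51.4 and −75.8 for the other siControl libraries. Each siRNA lowered its own target: IQGAP3 had 52.1, 49.6 and 48.9 CPM (counts relative to the TMM-scaled library total) in siIQGAP3 libraries, against 105, 127 and 82.5 CPM in siControl libraries. In its own knockdown IGF2BP1 had a log2 fold change over siControl of −2.26, SRF one of −3.73 and FOXM1 one of −2.28. That of IQGAP3 was the smallest of the 4, at −1.06. Several targets were low in other knockdowns as well. SRF was as low in siIGF2BP1, at 5.30 to 7.92 CPM, as in siSRF, at 5.95 to 7.04 CPM, against 82.8 to 92.2 CPM in siControl, and FOXM1 had log2 fold changes of −1.73 in siIGF2BP1 and −1.77 in siSRF (edgeR adjusted p = 0.00773 and 0.00569). IQGAP3 was lower in the other 3 knockdowns than in its own, with 13.6 to 21.4 CPM in siIGF2BP1, 13.9 to 24.5 CPM in siSRF and 4.42 to 8.75 CPM in siFOXM1. The third siControl library kept POU5F1, with 711 CPM, against 906 and 874 CPM in the other siControl libraries and at most 84.4 CPM in any knockdown library. The 8 embryonal carcinoma markers were detected in every group, and their summed level was 213 to 389 CPM in siIGF2BP1, 179.9 to 386 CPM in siSRF, 126 to 904 CPM in siFOXM1, 3313 to 3319.9 CPM in siIQGAP3 and 1426 to 2694 CPM in siControl.

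Summed over the 10 YAP and TEAD target genes, the level was 227, 229.8 and 310.4 CPM in siIGF2BP1 libraries, 216, 208 and 417 CPM in siSRF, 527, 527 and 280.4 CPM in siFOXM1, 1021, 1010.2 and 1009 CPM in siIQGAP3, and 279.7, 274 and 1061 CPM in siControl. The 3 siIQGAP3 libraries were alike and high, and the third siControl library was as high as they were. In RNA from whole cultures, fewer cells that express a gene and less RNA per cell cannot be told apart. A test of any difference among the 5 groups passed for CCN1, CCN2, AMOTL2, AXL, CRIM1, F3 and NT5E, with edgeR adjusted p between 0.00352 for F3 and 0.0405 for AMOTL2. It did not pass for ANKRD1 (0.0743), LATS2 (0.460) and AJUBA (0.596). The same test passed for 37% of all genes.

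**Figure D2:**
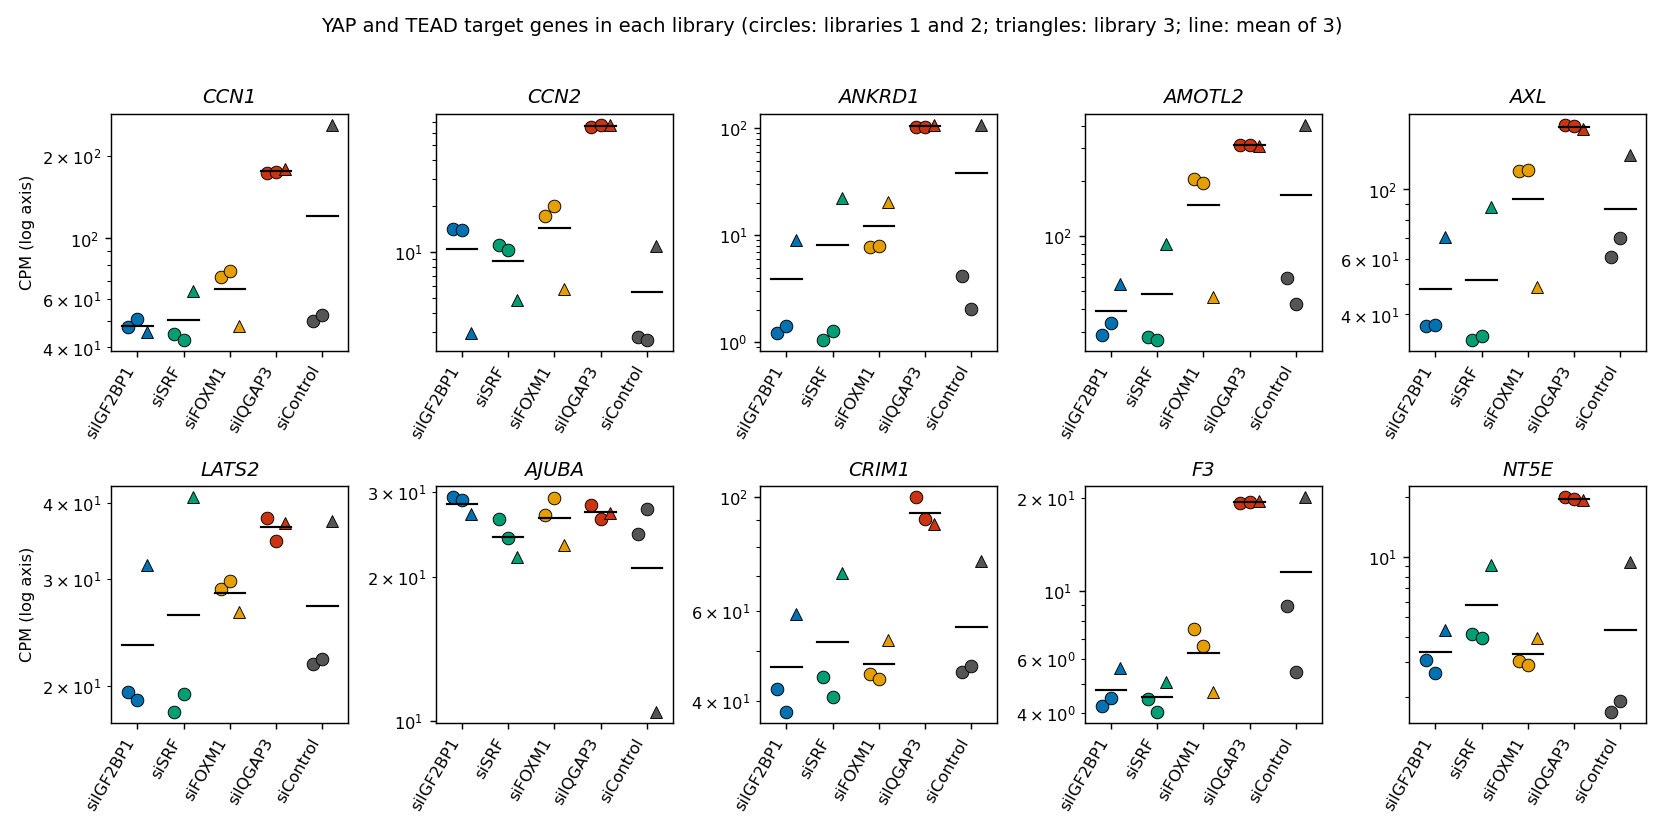
CPM of each of the 10 genes (log axis) in every library of the 5 siRNA groups, with circles for libraries 1 and 2, triangles for library 3 and a line at the group mean. The siIQGAP3 points lie together and high in 9 panels, and the siControl triangle lies far from the siControl circles, as for ANKRD1 at 108 CPM beside 4.20 and 2.04 CPM.

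CCN1 and CCN2 are secreted proteins of the extracellular matrix that bind integrins, and both are standard readouts of YAP activity. CCN1 had 47.7, 50.6 and 45.5 CPM in siIGF2BP1 libraries, 44.8, 42.6 and 64.4 CPM in siSRF, 72.6, 75.9 and 47.9 CPM in siFOXM1, 173, 175 and 179.7 CPM in siIQGAP3, and 50.1, 52.4 and 259 CPM in siControl. The siControl libraries lay on both sides of all siIQGAP3 libraries, so those groups overlapped. CCN2 had 14.1, 14.0 and 2.97 CPM in siIGF2BP1 libraries, 11.1, 10.4 and 4.85 CPM in siSRF, 17.3, 20.0 and 5.70 CPM in siFOXM1, 64.9, 67.1 and 67.2 CPM in siIQGAP3, and 2.78, 2.66 and 10.9 CPM in siControl. Every siIQGAP3 library was above every other library for CCN2. For CCN2 the third library was the lowest of its group in siIGF2BP1, siSRF and siFOXM1, at 0.212, 0.453 and 0.306 of the mean of the other 2, whereas in siControl it was the highest, at 4.002 times that mean.

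ANKRD1 is an ankyrin repeat protein found in the nucleus and, in muscle, in the sarcomere, and it is one of the targets most used to score YAP. Its levels were 1.23, 1.43 and 8.97 CPM in siIGF2BP1 libraries, 1.05, 1.29 and 22.2 CPM in siSRF, 7.76, 7.94 and 20.8 CPM in siFOXM1, 103, 104 and 107 CPM in siIQGAP3, and 4.20, 2.04 and 108 CPM in siControl. The third library was the highest of its group in each of the 5 groups, and the third siControl library matched siIQGAP3. Within siControl it was 34.5 times the mean of the other 2, the widest gap of the 10 genes.

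AMOTL2, LATS2 and AJUBA feed back on the pathway: AMOTL2 is an angiomotin that binds YAP at junctions and actin, LATS2 is one of the kinases that phosphorylate YAP, and AJUBA is a LIM protein that binds LATS kinases. AMOTL2 had 28.7, 33.7 and 54.9 CPM in siIGF2BP1 libraries, 28.1, 27.0 and 89.8 CPM in siSRF, 203, 195 and 46.3 CPM in siFOXM1, 314, 314 and 308 CPM in siIQGAP3, and 59.1, 42.4 and 402 CPM in siControl. The third library was high for AMOTL2 in siIGF2BP1, siSRF and siControl and low in siFOXM1. LATS2 had 19.5, 19.0 and 31.6 CPM in siIGF2BP1 libraries, 18.1, 19.4 and 40.9 CPM in siSRF, 28.9, 29.8 and 26.5 CPM in siFOXM1, 37.8, 34.7 and 37.1 CPM in siIQGAP3, and 21.8, 22.2 and 37.4 CPM in siControl. The group means of LATS2 spanned a narrow range, from 23.4 ± 7.13 CPM in siIGF2BP1 to 36.5 ± 1.62 CPM in siIQGAP3 (SD, n = 3 each). AJUBA had 29.3, 28.9 and 26.9 CPM in siIGF2BP1 libraries, 26.3, 24.1 and 22.0 CPM in siSRF, 26.9, 29.1 and 23.2 CPM in siFOXM1, 28.2, 26.3 and 27.1 CPM in siIQGAP3, and 24.5, 27.6 and 10.5 CPM in siControl. Apart from the third siControl library, every AJUBA value lay between 22.0 and 29.3 CPM. That library was low for AJUBA, at 0.401 of the mean of the other 2, and above both others for each of the other 9 genes, while 49.1% of all genes were above both others there.

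AXL is a receptor tyrosine kinase that binds GAS6. It had 36.8, 37.0 and 70.4 CPM in siIGF2BP1 libraries, 33.2, 34.2 and 87.6 CPM in siSRF, 114, 116 and 48.8 CPM in siFOXM1, 160.4, 159.8 and 156 CPM in siIQGAP3, and 61.1, 70.2 and 129 CPM in siControl. Like AMOTL2, AXL was low in the third siFOXM1 library and high in the third siIGF2BP1, siSRF and siControl libraries. CRIM1 is a transmembrane protein with cysteine-rich repeats that binds BMP ligands. It had 42.3, 38.1 and 59.3 CPM in siIGF2BP1 libraries, 44.5, 40.9 and 71.1 CPM in siSRF, 45.2, 44.2 and 52.6 CPM in siFOXM1, 99.8, 90.5 and 88.6 CPM in siIQGAP3, and 45.6, 46.8 and 75.0 CPM in siControl. The siIQGAP3 libraries were above all others for both AXL and CRIM1. How many of all genes separate in the same way is not given here, for these or for the other genes.

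F3 is tissue factor, the cell-surface protein that starts blood clotting with factor VII. F3 had 4.23, 4.48 and 5.61 CPM in siIGF2BP1 libraries, 4.46, 4.04 and 5.05 CPM in siSRF, 7.50, 6.64 and 4.70 CPM in siFOXM1, 19.2, 19.4 and 19.5 CPM in siIQGAP3, and 8.94, 5.46 and 20.1 CPM in siControl. The third siControl library was above all siIQGAP3 libraries, while all siSRF libraries were below all siControl libraries. NT5E is CD73, the ectoenzyme that makes adenosine from AMP outside the cell. NT5E had 3.07, 2.64 and 4.32 CPM in siIGF2BP1 libraries, 4.14, 3.97 and 9.18 CPM in siSRF, 3.02, 2.90 and 3.94 CPM in siFOXM1, 19.9, 19.6 and 19.2 CPM in siIQGAP3, and 1.68, 1.90 and 9.45 CPM in siControl. Every siIQGAP3 library had more NT5E than any other library.

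**Figure D3:**
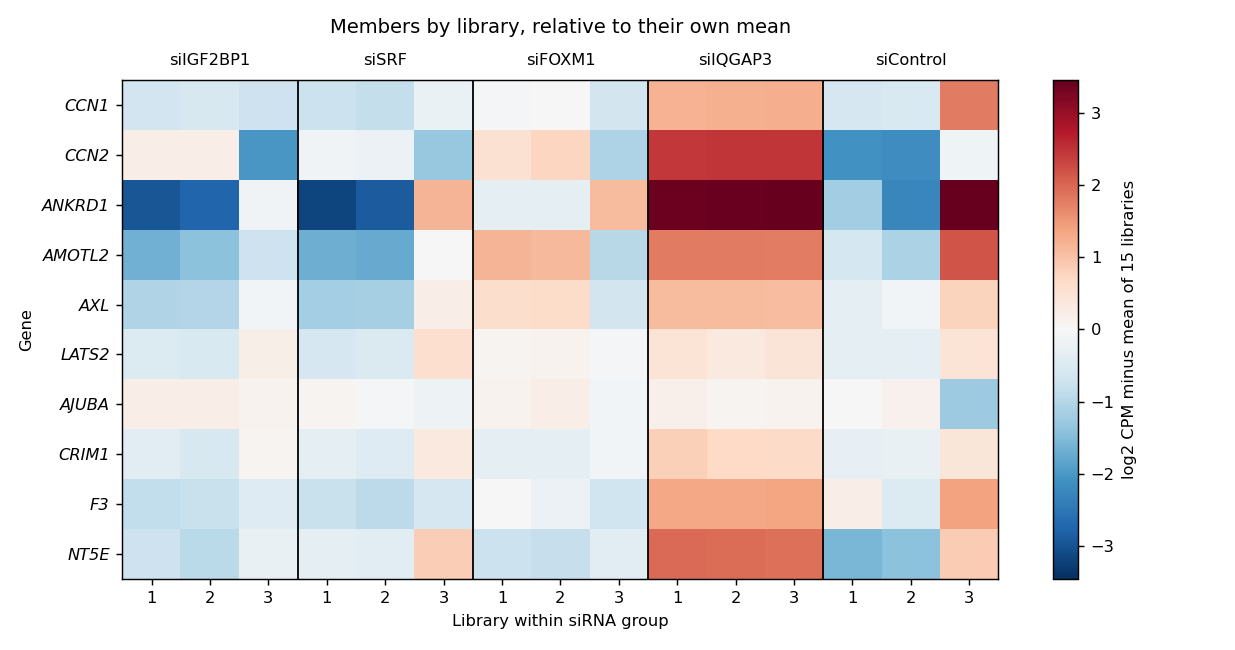
log2 CPM of the 10 genes (rows) in the 15 libraries (columns, in 5 siRNA groups), each minus the gene's mean over the 15, with red above and blue below that mean. The 3 siIQGAP3 columns are red for most genes, and the third siControl column is red as well except for CCN2 and AJUBA.

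After IQGAP3 knockdown CCN2, NT5E and CRIM1 were higher than in siControl, and the other 7 genes did not pass the test. CCN2 averaged 66.4 ± 1.30 CPM in siIQGAP3 and 5.44 ± 4.71 CPM in siControl, a log2 fold change of 3.61 ± 0.72 (SE) with an edgeR adjusted p of 0.00324. NT5E averaged 19.6 ± 0.366 CPM in siIQGAP3 and 4.35 ± 4.42 CPM in siControl, a log2 fold change of 2.17 ± 0.58 with an edgeR adjusted p of 0.0139. CRIM1 averaged 93.0 ± 6.01 CPM in siIQGAP3 and 55.8 ± 16.7 CPM in siControl, a log2 fold change of 0.74 ± 0.25 with an edgeR adjusted p of 0.0381 (SD, n = 3 libraries a group). These 3 of 10 compare with 32.5% of all genes tested that were called in this comparison, and with 10.8% of all genes tested that were called higher. The fold changes of all 10 genes were above 0, with a median of 0.81 on the log2 scale, beside −0.058 over all genes. Against the third siControl library alone their median was 0.14, with 5 above 0 and 5 below. ANKRD1 had a log2 fold change of 1.46 ± 1.38 and an edgeR adjusted p of 0.432, and its siControl libraries ran between 2.04 and 108 CPM.

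These calls leaned on which libraries were in the fit, and that of CRIM1 on the scaling as well. With library size in place of TMM scaling CRIM1 did not pass, at a log2 fold change of 0.73 (edgeR adjusted p = 0.0712). With libraries 1 and 2 of each group summed, which leaves 2 samples a group, none of the 3 passed, at edgeR adjusted p of 0.157 for CCN2, 0.249 for NT5E and 0.377 for CRIM1, where 0.0513% of all genes were called. With only siIQGAP3 and siControl in the fit CCN2 passed (edgeR adjusted p = 0.0200), but NT5E (edgeR adjusted p = 0.0786) and CRIM1 (edgeR adjusted p = 0.0599) did not, where 20.7% of all genes were called. Without the third siControl library 8 genes were higher in siIQGAP3, namely all but LATS2 and AJUBA, where 56.5% of all genes were called. Without the first or the second 1 was, CCN2, where 19.4% and 18.5% of all genes were called. CCN2 was called whichever 1 of the 6 libraries was left out, with log2 fold changes of 3.28 to 4.61 and edgeR adjusted p of 0.000315 to 0.0183. NT5E lost its call without the first siControl library (edgeR adjusted p = 0.0515) or the second (edgeR adjusted p = 0.0579). CRIM1 was called only when the third siControl library was the one left out, with an edgeR adjusted p of 0.0751 to 0.149 without any other. Against the third siControl library alone, whose spread was taken from the other groups, AJUBA was the 1 gene called, at a log2 fold change of 1.38 (edgeR adjusted p = 0.000821), beside 2.61 for CCN2 (edgeR adjusted p = 0.113), where 10.8% of all genes were called. The mean in siIQGAP3 was 6.10 times that library's level for CCN2 and 2.07 times for NT5E, but 0.973 for ANKRD1, 0.963 for F3, 0.775 for AMOTL2 and 0.678 for CCN1.

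None of the 10 genes passed the threshold against siControl after the knockdown of IGF2BP1, SRF or FOXM1 with edgeR. At an unadjusted p under 0.05 there were 4, 3 and 1 of them, beside 15.1%, 14.5% and 12.5% of all genes. DESeq2 called 1, 1 and 0, which was F3 in siIGF2BP1 and siSRF, beside 4.54%, 4.62% and 3.52% of all genes. It gave some of the 10 genes no p-value in these comparisons, and those were counted as not called. Among all genes edgeR called 1.62% in siIGF2BP1, 1.57% in siSRF and 1.12% in siFOXM1. Fold changes of the 10 genes were mixed in sign, with medians of −0.62, −0.42 and −0.21 on the log2 scale and 8, 7 and 6 of the 10 below 0. Without the third siControl library these medians were above 0, at 0.050, 0.078 and 0.44, with 4, 5 and 1 of the 10 below 0. F3 had the smallest adjusted p in siIGF2BP1, where it averaged 4.77 ± 0.739 CPM, against 11.5 ± 7.66 CPM in siControl, at a log2 fold change of −1.27 ± 0.37 (edgeR adjusted p = 0.127). In siSRF it averaged 4.52 ± 0.508 CPM, at −1.35 ± 0.38 (edgeR adjusted p = 0.102). Without the second siControl library F3 passed in both, with an edgeR adjusted p of 0.0227 in siIGF2BP1 and 0.0182 in siSRF, where 3.05% and 2.34% of all genes were called. Without the third, NT5E passed in siSRF, at a log2 fold change of 1.69 (edgeR adjusted p = 0.0194), beside 6.71% of all genes.

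With the third library of every group left out, far more passed, and the directions differed between genes. In siIGF2BP1 CCN2 and NT5E were higher and ANKRD1, AMOTL2, AXL, LATS2, CRIM1 and F3 were lower. In siSRF CCN2 and NT5E were higher and CCN1, ANKRD1, AMOTL2, AXL, LATS2 and F3 were lower. In siFOXM1 the 7 genes called, CCN1, CCN2, ANKRD1, AMOTL2, AXL, LATS2 and NT5E, were all higher, with log2 fold changes of 0.40 for LATS2 to 2.76 for CCN2. In siIQGAP3 9 were higher, all but AJUBA. Over all genes 48.9%, 54.2%, 52.9% and 80.6% were called in these 4 comparisons, and the spread in them is that of libraries 1 and 2 alone. With the third siControl library as the only control, CCN1, F3, AMOTL2, ANKRD1 and NT5E were lower in siIGF2BP1, the first 3 of these in siSRF and CCN1, F3 and NT5E in siFOXM1, and AJUBA was higher in each, where 39.8%, 33.9% and 28.6% of all genes were called. Between these choices of library the sign of the fold change over siControl turned in siFOXM1 for CCN1, ANKRD1, AMOTL2, AXL, LATS2 and NT5E, in siIGF2BP1 for CCN2 and NT5E, in siSRF for CCN2, AJUBA and NT5E, and in siIQGAP3 for CCN1, ANKRD1, AMOTL2, LATS2 and F3.

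**Figure D4:**
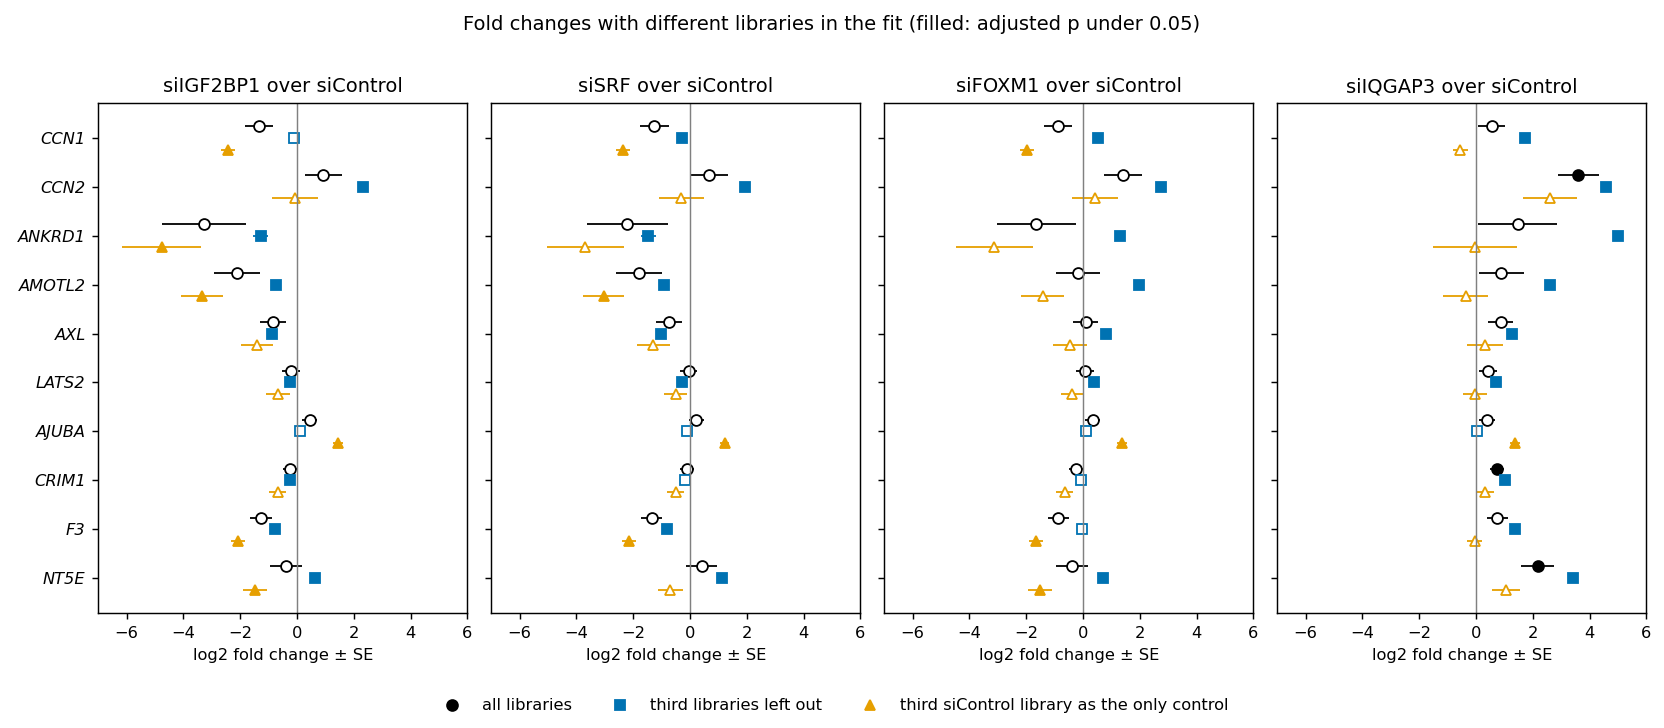
log2 fold change over siControl ± SE for the 10 genes in 4 panels, 1 for each knockdown, with all libraries (black circles), with the third libraries left out (blue squares) and with the third siControl library as the only control (orange triangles); filled symbols passed an adjusted p of 0.05. In siIQGAP3 the filled black circles are CCN2, CRIM1 and NT5E, and the orange triangles of CCN1, ANKRD1, AMOTL2, LATS2 and F3 lie below 0.

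Set against siIQGAP3, whose 3 libraries were alike, between 5 and 8 of the 10 transcripts were lower in the other knockdowns. In siIGF2BP1 8 of the 10 were lower, all but LATS2 and AJUBA, where 49.9% of all genes were called and 22% were lower. In siSRF 7 were lower, all but ANKRD1, LATS2 and AJUBA, beside 42.8% of all genes called and 17% lower. In siFOXM1 5 were lower, CCN1, CCN2, CRIM1, F3 and NT5E, beside 36.8% called and 13.9% lower. The median log2 fold changes of the 10 were −1.95, −1.78 and −1.25, while those of all genes were 0.033, 0.069 and 0.028. F3 had 4.77 ± 0.739 CPM in siIGF2BP1, 4.52 ± 0.508 CPM in siSRF and 6.28 ± 1.43 CPM in siFOXM1, against 19.4 ± 0.157 CPM in siIQGAP3, at log2 fold changes of −2.02 ± 0.38, −2.10 ± 0.38 and −1.63 ± 0.38 with edgeR adjusted p of 0.00154, 0.00162 and 0.00621. ANKRD1 had a log2 fold change of −4.75 ± 1.59 in siIGF2BP1 over siIQGAP3 (edgeR adjusted p = 0.0259) and of −3.67 ± 1.50 in siSRF (edgeR adjusted p = 0.0650). AMOTL2 was at −3.00 ± 0.84 in siIGF2BP1 (edgeR adjusted p = 0.0116), at −2.69 ± 0.83 in siSRF (edgeR adjusted p = 0.0208) and at −1.08 ± 0.79 in siFOXM1 (edgeR adjusted p = 0.294). Whether siFOXM1 differed from siIGF2BP1 or siSRF in AMOTL2 was tested directly and did not pass (edgeR adjusted p = 0.971 and 1).

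With libraries 1 and 2 summed none of the 10 genes passed against siIQGAP3 in siIGF2BP1, siSRF or siFOXM1, where 0.523%, 0.0205% and 0.0103% of all genes were called, and F3 had edgeR adjusted p of 0.0664, 0.0871 and 0.111. F3 was called in all 3 comparisons whichever 1 library was left out. In siIGF2BP1 ANKRD1 lost its call without the first or second siIGF2BP1 library (edgeR adjusted p = 0.0863 for either), and LATS2 gained one without the third (edgeR adjusted p = 0.0433). In siSRF 2 of the 10 genes, CCN2 and F3, were left without the first or second siSRF library, and 9 were called without the third, where 29.8%, 29.9% and 50.7% of all genes were called. NT5E there lost its call without any 1 of the siIQGAP3 libraries as well (edgeR adjusted p = 0.0562 to 0.0587), and CRIM1 without the first of them (edgeR adjusted p = 0.0561). In siFOXM1 CCN1 lost its call without any 1 of the 6 libraries (edgeR adjusted p = 0.0762 to 0.125), CCN2 without any but the second siFOXM1 library (edgeR adjusted p = 0.0517 to 0.0745), and CRIM1, F3 and NT5E kept theirs in all 6.

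By mean CPM siIQGAP3 was the highest group for every gene but AJUBA, and siIGF2BP1 the lowest for CCN1, ANKRD1, AMOTL2, AXL, LATS2 and CRIM1. The lowest group was siControl for CCN2 and AJUBA, siSRF for F3 and siFOXM1 for NT5E. Of the 40 pairs of neighbours in these orders 3 differed by the test, CCN2 in siFOXM1 and siIQGAP3 (edgeR adjusted p = 0.0234), CRIM1 in siIQGAP3 and siControl, and NT5E in siSRF and siIQGAP3 (edgeR adjusted p = 0.0259). In those 3 comparisons 36.8%, 32.5% and 42.8% of all genes were called. The orders were taken from the same data as the tests. No other neighbours in these orders passed, though some had larger fold changes than CRIM1 in siIQGAP3 over siControl, at 0.74 on the log2 scale. ANKRD1 in siFOXM1 over siControl, for example, was at −1.64. Among siIGF2BP1, siSRF and siFOXM1 no gene of the 10 was called in any pair, where edgeR called 0.00533%, 0.0107% and 0.00533% of all genes for siIGF2BP1 over siSRF, siIGF2BP1 over siFOXM1 and siSRF over siFOXM1. At an unadjusted p under 0.05 there were 0, 1 and 0 of the 10, beside 0.283%, 4.84% and 4.02% of all genes.

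Lists of related genes are counted below beside the shares of all genes called over siControl, which were 1.62% in siIGF2BP1, 1.57% in siSRF, 1.12% in siFOXM1 and 32.5% in siIQGAP3. Their counts moved with the libraries in the fit as those of the 10 genes did. Most counts are therefore also given with the third libraries left out, where 48.9%, 54.2%, 52.9% and 80.6% of all genes were called. Many are also given against the third siControl library alone, though not for every list and knockdown. The shares of all genes for that setting are given above.

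The coactivators themselves did not pass the test in any knockdown with all libraries. YAP1 was lower in all 4 knockdowns with the third libraries left out, at log2 fold changes of −0.73 in siIGF2BP1, −0.85 in siSRF, −0.57 in siFOXM1 and −0.70 in siIQGAP3, while against the third siControl library alone its fold changes were above 0 in all 4 and passed in none. YAP1 had 161, 150.2 and 211 CPM in siIGF2BP1 libraries, 147, 139 and 202 CPM in siSRF, 172, 168 and 169 CPM in siFOXM1, 162, 152 and 154 CPM in siIQGAP3, and 267, 232 and 140.0 CPM in siControl. In siIQGAP3 the log2 fold change over siControl was −0.45 ± 0.22 for YAP1 (edgeR adjusted p = 0.133) and −0.78 ± 0.36 for WWTR1 (edgeR adjusted p = 0.115). Of the 10 genes of YAP1, WWTR1, the TEAD factors and the VGLL cofactors 9 were tested, of which 1 fell in siSRF and 1 in siIQGAP3. With the third libraries left out 2 were higher and 6 lower in siIGF2BP1 and in siSRF, 2 and 4 in siFOXM1 and 2 and 5 in siIQGAP3. Against the third siControl library alone 3, 3, 2 and 1 were lower in siIGF2BP1, siSRF, siFOXM1 and siIQGAP3, and 1 was higher in siIQGAP3. VGLL4, which competes with YAP for TEAD, fell in siIQGAP3 by 0.64 on the log2 scale (edgeR adjusted p = 0.0402). TEAD4, a TEAD factor, fell in siSRF by 1.21 (edgeR adjusted p = 0.0209), with 46.1, 47.3 and 41.7 CPM, against 91.5, 91.4 and 129 CPM in siControl. TEAD4 in siIGF2BP1 was at −0.98 ± 0.23 (edgeR adjusted p = 0.0585).

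**Figure D5:**
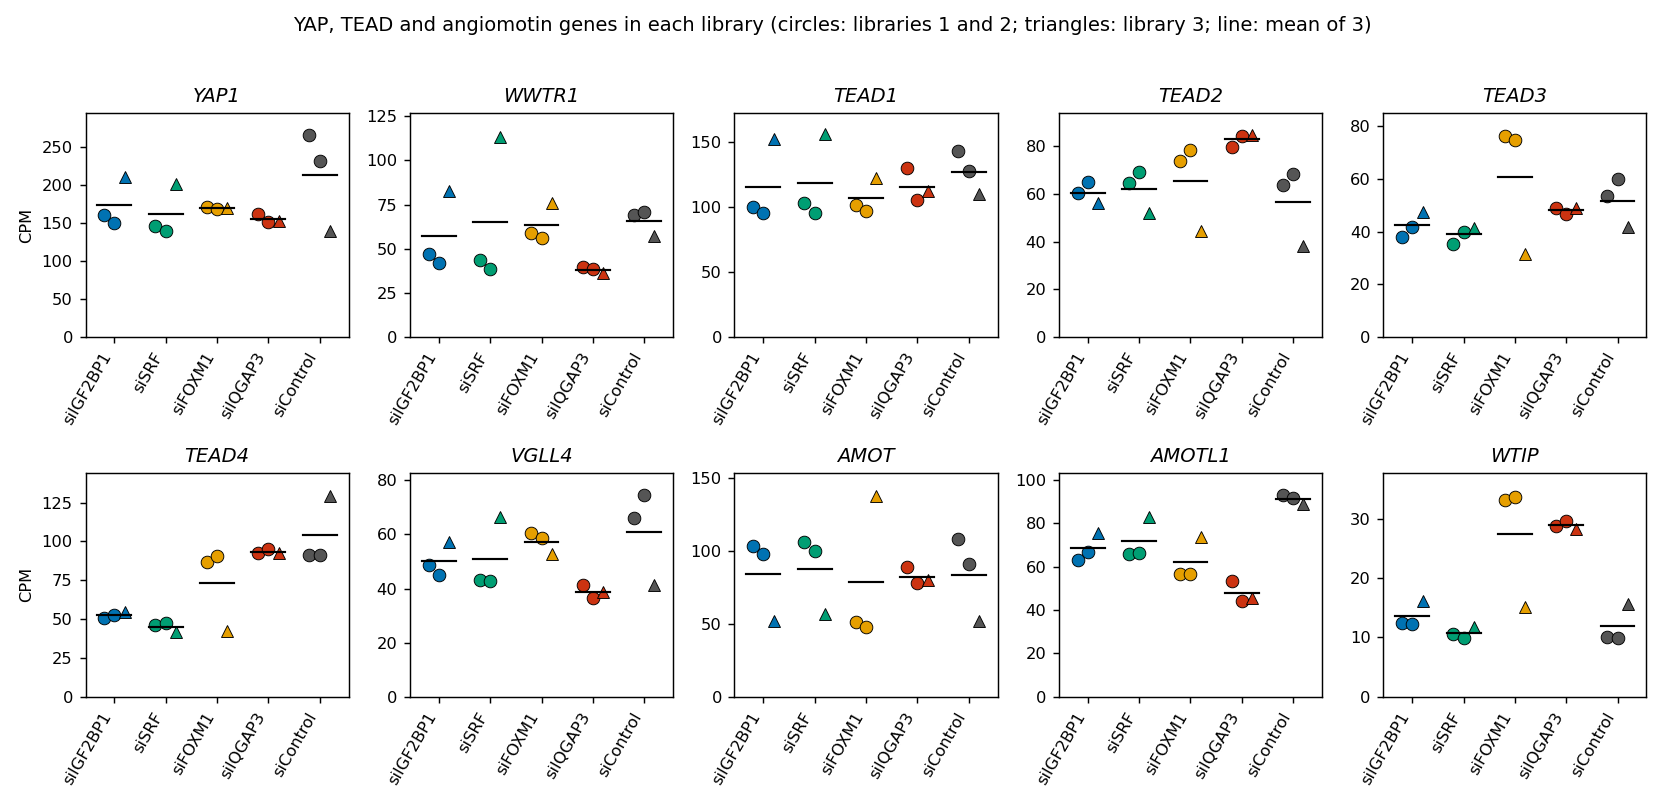
CPM of YAP1, WWTR1, TEAD1 to TEAD4, VGLL4, AMOT, AMOTL1 and WTIP in every library of the 5 siRNA groups, with circles for libraries 1 and 2, triangles for library 3 and a line at the group mean. TEAD4 lies at 41.7 to 54.8 CPM in siIGF2BP1 and siSRF libraries, against 91.4 to 129 CPM in siControl.

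Among the 16 genes of the Hippo kinase core, which holds LATS2, 1 rose and 3 fell in siIQGAP3 and none passed in the other knockdowns. These 4 of 16 lie below the 32.5% of all genes. In siIQGAP3 4 were higher and 9 lower with the third libraries left out, and 9 or 10 were called in each other knockdown, most of them lower. Against the third siControl library alone 0 were called in siIQGAP3 and 5, 3 and 2 in siIGF2BP1, siSRF and siFOXM1. STK4, the MST1 kinase, rose by 0.35 on the log2 scale (edgeR adjusted p = 0.0227), while SAV1, its scaffold, fell by 0.45 (edgeR adjusted p = 0.00811) and the TAO kinases TAOK3 and TAOK2 fell by 1.30 and 0.43 (edgeR adjusted p = 0.0114 and 0.0135). TAOK3 had 13.0, 15.4 and 14.5 CPM in siIQGAP3, against 44.8, 47.5 and 13.9 CPM in siControl, so the third siControl library was level with siIQGAP3. MAP4K4, the highest of the list, did not pass in any knockdown, the nearest being siIQGAP3 at 0.77 ± 0.29 (edgeR adjusted p = 0.0622). Of the 9 genes that hold YAP back or bind LATS, which include AMOTL2 and AJUBA, WTIP, a relative of AJUBA, rose in siIQGAP3 by 1.29 (edgeR adjusted p = 0.00525), and AMOTL1, a relative of AMOTL2, fell by 0.94 (edgeR adjusted p = 0.000826). AMOTL1 stayed lower against the third siControl library alone (−0.90, edgeR adjusted p = 0.0165), with 53.4, 44.2 and 45.7 CPM in siIQGAP3, against 93.2, 91.9 and 89.1 CPM in siControl. Of these 9 genes 4 were higher and 4 lower in siIQGAP3 with the third libraries left out, and 1, 0 and 2 were higher and 5, 6 and 6 lower in siIGF2BP1, siSRF and siFOXM1. Against the third siControl library alone 1 was higher and 1 lower in siIQGAP3. LIMD1, another relative of AJUBA, fell in siIGF2BP1 by 0.87 (edgeR adjusted p = 0.0264) and in siSRF by 0.78 (edgeR adjusted p = 0.0428).

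In a list of 13 further YAP and TEAD targets, 1 rose and 1 fell in siIQGAP3, 1 rose in siSRF and none passed in siIGF2BP1 or siFOXM1. Leaving out the third libraries, 3 were higher and 9 lower in siIGF2BP1 and in siSRF, 5 and 5 in siFOXM1, and 7 and 5 in siIQGAP3. Against the third siControl library alone 7, 7, 4 and 0 of the 13 were called in siIGF2BP1, siSRF, siFOXM1 and siIQGAP3. FJX1, a secreted inhibitor of dendrite growth in mice, rose in siIQGAP3 by 0.77 on the log2 scale (edgeR adjusted p = 0.0290), and FOXF2, a forkhead factor of mesenchyme, fell by 4.17 (edgeR adjusted p = 0.00776). FOXF2 had 0.740, 0.664 and 0.798 CPM in siIQGAP3, against 18.8, 20.6 and 0.555 CPM in siControl, so here too the third siControl library lay with siIQGAP3. IGFBP3, which binds insulin-like growth factors, rose in siSRF by 1.33 (edgeR adjusted p = 0.0198), with 159, 153 and 167 CPM, against 51.9, 44.5 and 93.8 CPM in siControl. PTPN14, a phosphatase that binds YAP and the highest of this list, did not pass in siIGF2BP1 (−0.80, edgeR adjusted p = 0.146) or siFOXM1 (−0.67, edgeR adjusted p = 0.267).

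Of the 15 targets of SRF and its MRTF cofactors, many of them actin genes, FHL2 rose in siIQGAP3 by 0.92 on the log2 scale (edgeR adjusted p = 0.0350) and none passed in siIGF2BP1, siSRF or siFOXM1. FHL2 encodes a LIM domain cofactor. All 15 were lower in siIGF2BP1 and in siSRF with the third libraries left out, while 10 were higher and 2 lower in siFOXM1 and 10 higher and 3 lower in siIQGAP3. Against the third siControl library alone 6, 5 and 1 were lower in siIGF2BP1, siSRF and siFOXM1, and 0 were called in siIQGAP3. ACTB, cytoplasmic actin and the highest of these genes, was at −0.84 ± 0.33 in siIGF2BP1, −0.70 ± 0.33 in siSRF and −0.36 ± 0.32 in siFOXM1 (edgeR adjusted p = 0.251, 0.345 and 0.765). In the CCN family, which has 6 genes, CCN2 rose in siIQGAP3 while CCN3, another secreted family member, fell by 2.07 (edgeR adjusted p = 0.0304) and CCN5 fell by 4.27 (edgeR adjusted p = 0.0184), but against the third siControl library alone none of the 6 passed and CCN3 and CCN5 were at 1.18 and 0.73. CCN3 had 4.05, 4.01 and 5.12 CPM in siIQGAP3, against 25.2, 28.3 and 1.94 CPM in siControl.

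Markers of other cell types moved with the groups as well, and their part in the results above was not tested. The 8 fibroblast and mesenchyme markers summed to 5249 to 10951 CPM in siIGF2BP1, 4536 to 9378 CPM in siSRF, 7043 to 8868 CPM in siFOXM1, 2811 to 2848 CPM in siIQGAP3, and 7584, 8861 and 2019 CPM in the 3 siControl libraries. Of these markers 4 of 8 fell in siIQGAP3 and none passed in the other knockdowns. The direction turned with the control library: with the third libraries left out 2 were higher and 6 lower in siIQGAP3, while against the third siControl library alone 4 were higher and 0 lower there and 5 were higher and 1 lower in each other knockdown. The 6 neural markers summed to 235 to 297 CPM in siIGF2BP1, 237 to 446 CPM in siSRF, 233 to 489 CPM in siFOXM1, 695 to 704 CPM in siIQGAP3 and 411 to 651 CPM in siControl, and 2 of 6 rose in siIQGAP3, or 5 with the third libraries left out and 1 against the third siControl library alone. The 6 endothelial markers summed to 65.7 to 150.4 CPM over all libraries and the 5 blood markers to 0.959 to 6.05 CPM. Of the 5 endothelial markers tested, 2 fell in siIGF2BP1, 2 in siSRF and 1 in siFOXM1, while in siIQGAP3 1 rose and 2 fell. With the third libraries left out 0 were higher and 4 lower in siIGF2BP1, and 0 higher and 3 lower in siSRF. In that setting 2 were higher and 3 lower in siFOXM1, and 2 higher and 2 lower in siIQGAP3. Of the 3 blood markers tested, 1 fell in siIQGAP3. No marker was at 0 in every library of a group except the blood marker CD3E, in siSRF and siFOXM1. Of the 8 embryonal carcinoma markers 3 fell in siIGF2BP1, 3 in siSRF and 2 in siFOXM1. With the third libraries left out 0 were higher and 7 lower in siIGF2BP1 and in siSRF, and 2 were higher and 4 lower in siFOXM1. In siIQGAP3 POU5F1 and NANOG fell and DNMT3B and L1TD1 rose. There 6 were higher and 2 lower with the third libraries left out, and against the third siControl library alone 0 were higher and 2 lower.

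The 10 genes did not share 1 profile across the 15 libraries. Pearson's r of log2 CPM was highest for AMOTL2 with AXL at 0.96 and for CCN1 with F3 at 0.95, and CRIM1 had an r of 0.93 with NT5E and of 0.92 with ANKRD1. CCN2 had at most 0.71, with NT5E, and AJUBA ran from −0.46 with CCN1 to 0.16 with CCN2. The libraries fall into clusters, with siIQGAP3 and the third siControl library apart from the rest, and the genes share those libraries and their depth, so these values describe the clusters and carry no test. On the same measure the tested genes most like each of the 10 were KLRA1P and TTLL4 for CCN1 (0.99 and 0.98), LHX5 and PDHB for CCN2 (both 0.98), GAPLINC and RPL22L1 for ANKRD1 (both 0.99), ZIM2-AS1 and PTGIS for AMOTL2 (both 0.99), ADAM33 and MDFI for AXL (both 0.98), and TNS3 and SPARC for LATS2 (both 0.99). For AJUBA they were IDI1 and TMEM231 (0.95 and 0.94), for CRIM1 TNRC6A and MYOF (both 0.99), for F3 ZNF551 and TNFRSF21 (both 0.99) and for NT5E CDC73 (0.97). GAPLINC had at most 0.606 CPM in any library, and LHX5 at most 1.57 CPM outside siIQGAP3. Both were at 0 CPM in several libraries, so their r rests in part on values at the floor. MYOF, a membrane repair protein, is itself in the list of further targets, and had 25.3, 24.5 and 48.7 CPM in siIGF2BP1, 25.0, 25.9 and 87.2 CPM in siSRF, 29.7, 30.4 and 35.2 CPM in siFOXM1, 151, 139.6 and 148 CPM in siIQGAP3, and 33.1, 27.8 and 102 CPM in siControl.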

How the data were processed

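RNA of 15 NTERA2 libraries was sequenced. STAR, SAMtools, featureCounts and the build GRCh37 are named per the submitters' processing notes. Their versions, the annotation and whether strand was used are not given in the sources used here. Raw counts for 28207 genes, of which 3175 had no count, were deposited by the authors, as was a second table whose deposited signal was the count times 1 factor per library for 20398 of 20407 genes (tolerance 1e-06). Columns name the group and no replicate.

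All 28207 genes entered 1 edgeR 4.0.16 quasi-likelihood fit (R 4.3.3) of 5 groups with TMM scaling and filterByExpr, which kept 18760 genes, with 10 residual degrees of freedom. P-values were adjusted by Benjamini-Hochberg over the 18760 genes within each of the 10 comparisons, and calls needed an adjusted p under 0.05. CPM are TMM scaled and SD is over 3 libraries. SE was derived as the absolute log2 fold change divided by the square root of its F statistic. Log2 CPM for correlations used a prior count of 2. The fit was tested on simulated counts in which the libraries of a group shared the same mean and dispersion. No simulated library stood apart from its group, so that test does not cover the third libraries here.

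The 10 genes and the other lists, 16 in all, were chosen with earlier results of these data known. Named were all 10 genes, the siRNA targets, up to 3 genes of smallest p per list (the most abundant where none passed) and the 2 genes most correlated with each, of which 1 for NT5E is not reported here. STK4, WWTR1, MYOF as a listed target, CCN1 to CCN5, TEAD1 to TEAD3, AMOT and the markers named singly were added after their values were seen. Overlapping or antisense genes and the GAPLINC and KLRA1P transcripts may be counted differently under another strand setting.

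Alternatives were DESeq2 1.42.0, DESeq2 size factors, library size without TMM, no filter, at least 1 CPM in 3 libraries, only the 2 groups compared, limma 3.58.1 trend on the deposited signal with a pseudocount of 1, libraries 1 and 2 summed, the third libraries left out, the third siControl library alone, and each library left out.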

Additional observations from a re-analysis of the deposited data

How the results depend on the processing

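Of 910 fold changes of the 10 genes under alternatives, 735 kept their direction and side of the threshold, 66 lost and 59 gained a call and 50 changed sign. Across 7 changes of normalisation, filter or tool these were 298, 6, 2 and 4 of 310. The cause was not tested. DESeq2 gave ANKRD1 and AMOTL2 no adjusted p in the comparisons between knockdowns, and gave some of the 10 genes no p-value over siControl. A missing value was counted as no call. The 3 calls lost with DESeq2 were all of this kind, ANKRD1 and AMOTL2 in siIGF2BP1 and AMOTL2 in siSRF, each over siIQGAP3. No paired analysis was possible because the columns carry no replicate numbers. The sign turned with limma on the deposited signal for NT5E in siIGF2BP1 (0.047) and for ANKRD1, AMOTL2 and NT5E in siFOXM1 (0.12, 0.25 and 0.026). It turned with libraries 1 and 2 summed for LATS2 in siSRF (0.020) and for AXL and LATS2 in siFOXM1 (−0.22 and −0.072). With the third libraries left out it turned for NT5E in siIGF2BP1 (0.63), AJUBA in siSRF (−0.093), and CCN1, ANKRD1, AMOTL2 and NT5E in siFOXM1 (0.52, 1.30, 1.95 and 0.71), and for AJUBA in siFOXM1 over siIQGAP3 (0.058). With the third siControl library alone it turned for CCN2 in siIGF2BP1 (−0.066), CCN2 and NT5E in siSRF (−0.31 and −0.70), AXL and LATS2 in siFOXM1 (−0.45 and −0.38), and CCN1, ANKRD1, AMOTL2, LATS2 and F3 in siIQGAP3 (−0.56, −0.036, −0.36, −0.033 and −0.051).

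Leaving out 1 library at a time, fold changes that changed sign ran in siIGF2BP1 over siControl from −4.82 to 0.32 for ANKRD1, −0.49 to 0.089 for LATS2, −0.47 to 0.011 for CRIM1 and −0.76 to 0.90 for NT5E. In siSRF they ran from −5.01 to 1.39 for ANKRD1, −0.53 to 0.25 for LATS2, −0.11 to 0.47 for AJUBA, −0.38 to 0.18 for CRIM1 and −0.10 to 1.69 for NT5E. In siFOXM1 they ran from −1.25 to 0.35 for CCN1, −2.26 to 1.96 for ANKRD1, −0.63 to 1.54 for AMOTL2, −0.095 to 0.50 for AXL, −0.069 to 0.37 for LATS2, −0.36 to 0.034 for CRIM1 and −0.79 to 0.88 for NT5E, and over siIQGAP3 from −0.12 to 0.060 for AJUBA. These turns came without the third siControl library, except LATS2 and CRIM1 in siSRF (also without either of the first siSRF libraries), NT5E in siSRF (the third siSRF), AXL in siFOXM1 (any of the first 2 siFOXM1 or siControl), LATS2 in siFOXM1 (either of the first 2 siControl), AMOTL2 in siFOXM1 (also the third siFOXM1) and AJUBA over siIQGAP3 (the third siFOXM1).

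Counts of all genes called over siControl, 303 in siIGF2BP1, 294 in siSRF, 210 in siFOXM1 and 6096 in siIQGAP3, were 1113, 1133 and 863 in the first 3 with DESeq2, and 4, 1, 7 and 3619 with only the 2 groups compared. They were 1, 1, 0 and 10 with libraries 1 and 2 summed, 9122, 10115, 9860 and 15028 with the third libraries left out, and 7828, 6673, 5622 and 2130 with the third siControl library alone. With 1 library left out they were 67 to 581, 103 to 1273, 68 to 1548 and 3519 to 10711. Of the 10 genes, 1 was called in siIGF2BP1 and 1 in siSRF with DESeq2, 1 in siIQGAP3 with only the 2 groups, and 0 in siIQGAP3 over siControl and in each knockdown over siIQGAP3 with libraries summed. With the third libraries left out 8, 8, 7 and 9 were called over siControl and 9 in siFOXM1 over siIQGAP3, and with the third siControl library alone 6, 4, 4 and 1. With 1 library left out these were 0 to 1, 0 to 1, 0 to 0 and 1 to 8 over siControl, and 7 to 9, 2 to 9 and 3 to 4 over siIQGAP3. Over siIQGAP3 the genes called in siIGF2BP1, siSRF and siFOXM1 (9367, 8036 and 6903) were 102, 4 and 2 with libraries summed, 15093, 15006 and 14170 without the third libraries, and 7003 to 8899, 5655 to 9641 and 4536 to 6229 with 1 left out. For siIGF2BP1 over siSRF, siIGF2BP1 over siFOXM1 and siSRF over siFOXM1 (1, 2 and 1 genes) they were 2, 65 and 44 with DESeq2, 0, 1 and 1 with libraries summed, 259, 9956 and 10535 without the third libraries (with 1, 7 and 8 of the 10 genes), and 1 to 1, 2 to 206 and 1 to 175 with 1 left out.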

Other observations

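Partners of the surface proteins AXL, F3 and NT5E were followed in lists of their own. Of 5 TAM receptors and ligands, which include AXL, 1 fell in siIQGAP3 and none passed in the other knockdowns. With the third libraries left out 4 of the 5 were called in each knockdown, and against the third siControl library alone 2, 2, 2 and 1 in siIGF2BP1, siSRF, siFOXM1 and siIQGAP3. The 1 called in siIQGAP3 with all libraries was MERTK, a receptor related to AXL, which fell by 1.87 on the log2 scale (edgeR adjusted p = 0.000998), with 7.40, 6.93 and 8.23 CPM in siIQGAP3, against 32.1, 37.2 and 13.2 CPM in siControl. Of 5 genes of the tissue factor pathway F10, the clotting factor activated by F3 with factor VII, fell in all 4 knockdowns. It had 1.16, 0.754 and 1.01 CPM in siIGF2BP1, 1.03, 1.29 and 1.36 CPM in siSRF, 0.980, 0.915 and 1.63 CPM in siFOXM1, 0.575, 0.548 and 0.385 CPM in siIQGAP3, and 3.67, 3.12 and 3.22 CPM in siControl. All knockdown libraries were thus below all control libraries, and how many of all genes separate in this way is not given. With the third libraries left out 1 of the 5 genes was higher and 2 were lower in siIGF2BP1 and in siSRF. In that setting 2 were higher and 1 lower in siFOXM1, and 4 higher and 1 lower in siIQGAP3. The log2 fold changes of F10 were −1.78, −1.44, −1.50 and −2.72 (edgeR adjusted p = 0.0132, 0.0308, 0.0342 and 0.000172), and the 4 comparisons share the siControl libraries. TFPI, the inhibitor of tissue factor, rose in siIQGAP3 by 1.12 (edgeR adjusted p = 0.00357), with 27.3, 26.2 and 25.7 CPM, against 13.3, 14.9 and 8.28 CPM in siControl.

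Of 9 genes of extracellular adenosine, which include NT5E, 2 rose and 3 fell in siIQGAP3 and none passed in siIGF2BP1, siSRF or siFOXM1. With the third libraries left out 3 were higher and 5 lower in siIQGAP3, and against the third siControl library alone 0 were higher and 1, ENTPD2, lower. DPP4, a surface peptidase that binds adenosine deaminase, rose by 2.42 on the log2 scale (edgeR adjusted p = 0.00687), with 18.8, 17.8 and 19.8 CPM in siIQGAP3, against 3.41, 1.93 and 5.19 CPM in siControl. ENTPD2, which breaks down ATP outside the cell, fell by 4.89 (edgeR adjusted p = 8.52e-05), and the adenosine receptor ADORA2A fell by 2.52 (edgeR adjusted p = 0.0114). ADORA2A was below 1 CPM in every library. SLC29A1, a nucleoside transporter and the most abundant of these genes, did not pass in any knockdown, with log2 fold changes of −0.21, −0.38, −0.61 and −0.50 in siIGF2BP1, siSRF, siFOXM1 and siIQGAP3.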
